A study of Homo sapiens with 6 samples.

Results

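The genes described here encode the nuclear part of the mitochondrial respiratory chain and of ATP synthase. They were taken by symbol from the authors' deposited table, as every row named NDUFA, NDUFB, NDUFC, NDUFS or NDUFV with a number (complex I), SDHA to SDHD (complex II), UQCR (complex III), COX4 to COX8 (complex IV) or ATP5 (ATP synthase). This gave 93 of 26364 rows, with 42 in complex I, 4 in complex II, 10 in complex III, 17 in complex IV and 20 in ATP synthase. Of these, 80 are subunits or their tissue isoforms, and 13 carry such a symbol without being one: 3 antisense or divergent noncoding RNAs, 2 readthrough transcripts, 2 pseudogenes, 2 gene copies and the 4 protein genes NDUFA4L2, COX7A2L, ATP5S and ATP5SL.

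REH is an established human line grown from a B-precursor acute lymphoblastic leukaemia, and its total RNA was measured. Scramble libraries (3) came from cells transduced with a lentiviral scramble hairpin and shSTAT3 libraries (3) from cells given a lentiviral hairpin against STAT3, with 3 days of puromycin and removal of dead cells in both groups. The libraries come from 3 independent experiments. The labels do not say how many hairpin sequences were used. The authors' deposited table holds a mean over all 6 libraries, a fold change on the log2 scale, its p-value and its adjusted p for every gene, so no value per library can be shown. STAT3 itself was at 29.8% of scramble (log2 fold change −1.75, 95% interval −1.93 to −1.56), and its fall was used to set the sign, so that positive values mean higher in shSTAT3. Summed over genes, the means came to 11485068 normalized counts, and the library size factors lay between 0.935 and 1.13. A fold change without a p is listed for 74 genes, 64 of them negative, and 0 of these are respiratory chain rows. In bulk RNA, fewer cells of a kind and less RNA per cell cannot be told apart.

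The respiratory chain moves electrons from NADH (complex I) and succinate (complex II) through complex III to complex IV, where oxygen is reduced. Complexes I, III and IV pump protons across the inner mitochondrial membrane, and ATP synthase lets them flow back to make ATP. Most subunits are encoded in the nucleus and imported, while a small catalytic set is encoded by mitochondrial DNA, so each of these complexes except complex II is built from both genomes. The mitochondrially encoded subunits were looked for by symbol in the authors' deposited table and gave 0 rows, so they were not analysed here.

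Most respiratory chain transcripts stood close to their scramble level, with a modest tilt upward, while a few single subunits moved far from their partners. Of the 93 rows, 82 had an adjusted p and are called tested, and of these 18 rose and 5 fell at an adjusted p under 0.05 in the authors' deposited table. That is 28.0% called, against 44.5% of all 12061 tested genes. Higher calls made up 22.0% of the tested members against a background of 21.3%, so their share lay near that of all genes, and lower calls made up 6.1% against 23.2%. The median log2 fold change was 0.07 for the tested members and 0.00265 for all tested genes, and 57 of the 82 values were positive. The spread was narrow, with an SD of 0.24 on the log2 scale across the tested members against 0.47 across all tested genes. Among the 9425 tested genes whose mean lay in the range of the tested subunits, the SD was 0.44 and 48.9% were called. Tested genes no longer than 750 bases, the median transcript length of the tested subunits, had a median log2 fold change of 0.10. Of these short genes, with some of the subunits among them, 23.5% were higher and 11.4% lower. The set's shares, median and SD were compared with these backgrounds as a description only.

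**Figure D1:**
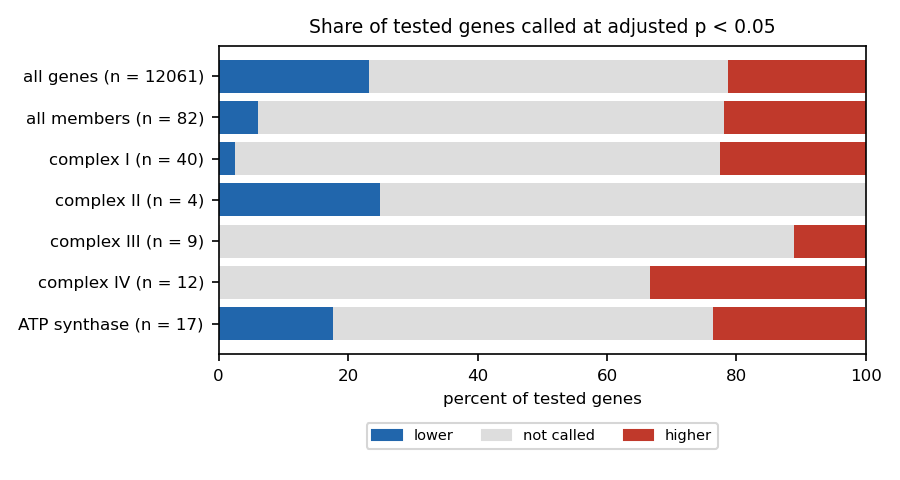
Share of tested genes, in percent (x axis), that were lower, not called or higher at an adjusted p under 0.05 in shSTAT3 against scramble, for all genes, all respiratory chain rows and each complex, with the number tested in brackets. The lower share is 6.1% for the respiratory chain rows and 23.2% for all genes, and the higher shares are 22.0% and 21.3%.

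**Figure D2:**
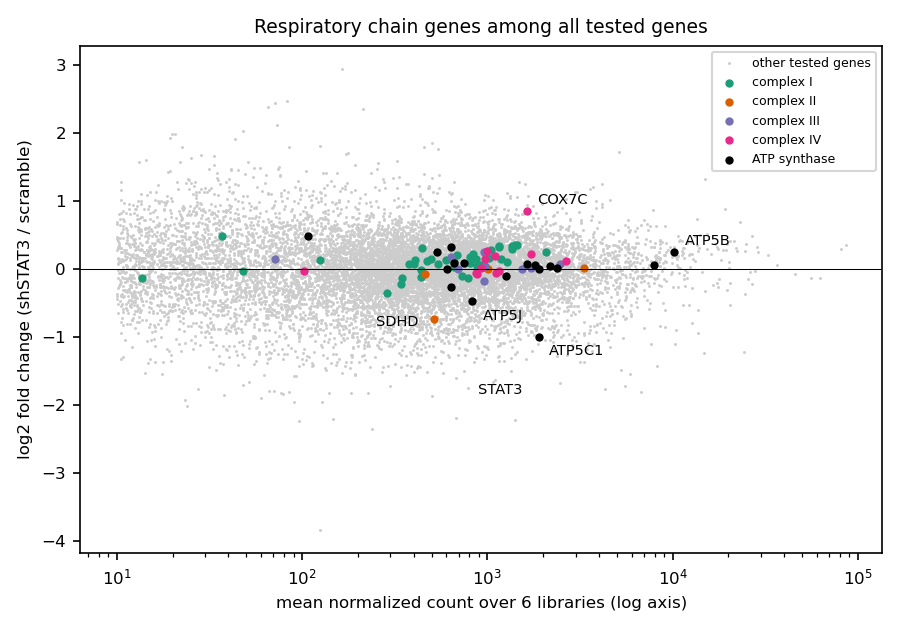
Fold change on a log2 scale (y axis) against the mean normalized count over 6 libraries (x axis, log scale) for each tested gene, with respiratory chain rows coloured by complex. Most coloured points lie in a narrow band near 0, and the labelled subunits COX7C, SDHD and ATP5C1 lie farthest from 0.

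Size separated 3 subunits from the other called members, as they alone changed by at least 1.5-fold. ATP5C1, which encodes the γ subunit that turns inside the F1 head of ATP synthase, fell in the authors' deposited table to 50.2% of scramble (log2 fold change −0.99, 95% interval −1.14 to −0.85, adjusted p = 4e-41). Its mean was 1896 normalized counts, and by p-value it ranked 50 among all tested genes. SDHD, a membrane anchor of complex II, fell in the authors' deposited table to 59.7% of scramble (log2 fold change −0.74, 95% interval −0.98 to −0.50, adjusted p = 1.34e-08), with a mean of 517. COX7C, a small membrane subunit of complex IV, rose in the authors' deposited table by 1.81-fold (log2 fold change 0.86, 95% interval 0.70 to 1.02, adjusted p = 7.32e-24), with a mean of 1631. The other 20 called members changed by less than 1.5-fold, and the 17 of them that rose lay between 1.14-fold and 1.40-fold. Over all called genes of the table, 38.9% reached 1.5-fold.

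ATP5C1 lies on chromosome 10 from 7788129 to 7807815 on the plus strand, SDHD on chromosome 11 from 112086773 to 112120013 on the plus strand, and COX7C on chromosome 5 from 86617904 to 86620962 on the plus strand (GRCh38, GENCODE 29). The next largest fall was that of ATP5J, which lies on chromosome 21, minus strand, from 25716503 to 25735673. The 250 bases before the RefSeq start of these genes are shown because they changed most among the tested subunits, and that of COX5B because it alone among the subunits scanned held the STAT motif described next. Capitals mark matches on either strand to the core of NRF1 (GCATGCGC), to an ETS core as bound by GABP (CCGGAAG), to a YY1 core (AAGATGGCG), or to the STAT motif TTCCNGGAA. The sequences are 5′ to 3′ on the strand of the gene, from RefSeq on GRCh38.p14, and for ATP5J the first of its listed starts was used.
ATP5C1, chr10:7787927-7788176, plus strand: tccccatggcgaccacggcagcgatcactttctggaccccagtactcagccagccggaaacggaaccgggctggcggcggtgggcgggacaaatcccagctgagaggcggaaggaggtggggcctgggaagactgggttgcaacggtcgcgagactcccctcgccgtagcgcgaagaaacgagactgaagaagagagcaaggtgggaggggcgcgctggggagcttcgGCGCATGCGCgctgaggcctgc
SDHD, chr11:112086623-112086872, plus strand: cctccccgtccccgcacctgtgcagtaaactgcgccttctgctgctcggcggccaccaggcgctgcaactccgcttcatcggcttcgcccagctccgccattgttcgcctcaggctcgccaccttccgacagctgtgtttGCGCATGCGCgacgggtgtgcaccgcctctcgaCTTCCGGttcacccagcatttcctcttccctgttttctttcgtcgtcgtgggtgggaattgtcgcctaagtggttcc
ATP5J, chr21:25735055-25735304, minus strand: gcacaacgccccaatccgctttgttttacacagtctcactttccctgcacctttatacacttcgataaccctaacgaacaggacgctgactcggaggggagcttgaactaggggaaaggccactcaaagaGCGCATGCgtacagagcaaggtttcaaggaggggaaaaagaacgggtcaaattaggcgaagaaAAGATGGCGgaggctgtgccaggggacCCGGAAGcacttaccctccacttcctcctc
COX7C, chr5:86617691-86617940, plus strand: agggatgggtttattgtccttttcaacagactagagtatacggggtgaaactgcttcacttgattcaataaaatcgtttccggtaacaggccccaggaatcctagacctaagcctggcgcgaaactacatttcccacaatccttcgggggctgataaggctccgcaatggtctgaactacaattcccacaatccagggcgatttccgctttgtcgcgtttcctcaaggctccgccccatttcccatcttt
COX5B, chr2:97645812-97646061, plus strand: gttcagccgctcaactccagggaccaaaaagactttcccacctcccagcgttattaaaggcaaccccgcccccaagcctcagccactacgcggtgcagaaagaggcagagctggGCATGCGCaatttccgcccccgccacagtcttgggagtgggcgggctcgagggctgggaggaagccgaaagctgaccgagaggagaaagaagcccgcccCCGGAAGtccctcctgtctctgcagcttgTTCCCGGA

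ATP5C1 and SDHD each carried overlapping matches to the NRF1 core in both orientations, the nearest to the start beginning 20 bases before it in ATP5C1 and 108 bases before it in SDHD. ATP5J held an NRF1, a YY1 and an ETS match, which begin 120, 57 and 30 bases before its start. COX7C held none of the motifs in this window. In COX5B the STAT motif begins 8 bases before the start and ends past it, and it overlaps an ETS match that begins 5 bases before the start. The joined stretch of capitals at its 3′ end is therefore cut short by the window shown.

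Counted over windows of 300 bases (250 before to 50 after each start, any start of a gene), the NRF1 core was present in 22.6% of the 62 tested subunit genes that had a promoter entry, out of 75, against 6.95% of 9643 tested genes and 3.68% of all 27305 genes with an entry. The YY1 core was present in 14.5%, 5.05% and 2.14% of the same groups. The ETS core was found in 32.3% of these subunit genes, in 23.5% of tested genes and in 12.2% of all genes. Of the 5 subunits that fell, 3 held the NRF1 core (ATP5C1, SDHD and ATP5J), as did 2 of 13 that rose (COX5B and ATP5I) and 9 of 44 that were not called. The STAT motif TTCCNGGAA was present in 1 of 62 subunit genes (1.61%), in 1.52% of tested genes and in 1.44% of all genes. With the looser form TTCNNNGAA, which contains the former, the shares were 8.06%, 8.57% and 9.38%. A match of letters is a description of the sequence, and binding was not measured.

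Complex I, the NADH dehydrogenase, gave 9 of the 18 rises and holds 42 of the 93 rows. Among its 37 subunits, all tested, 9 rose and 1 fell in the authors' deposited table, with a median log2 fold change of 0.12 and a range from −0.35 to 0.35. The higher share, 24.3%, lay near the 21.3% of all tested genes, and the lower share was 2.7% against 23.2%. The conserved core that binds the flavin and the iron-sulphur clusters has 7 nuclear members, of which 2 rose. NDUFV1, which holds the flavin that takes electrons from NADH, rose 1.19-fold (log2 fold change 0.25, 95% interval 0.11 to 0.39, adjusted p = 0.00204) in the authors' deposited table, where its mean is 2074. NDUFS3, a core subunit near the quinone site, rose in the authors' deposited table by 1.28-fold (log2 fold change 0.35, 95% interval 0.19 to 0.51, adjusted p = 0.000129). Cluster-bearing core subunits NDUFS1, NDUFS7 and NDUFS8 were at 0.10, 0.08 and 0.17 on the log2 scale and not called in the authors' deposited table. NDUFV2, the partner of NDUFV1 in the NADH-binding tip, was at −0.14 with a 95% interval from −0.33 to 0.05, which does not overlap that of NDUFV1.

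Of the 30 supernumerary subunits, which surround the core, 7 rose and 1 fell in the authors' deposited table. Their higher share, 23.3%, lay near the 21.3% of all tested genes, and their lower share was 3.33% against 23.2%. In the authors' deposited table NDUFA10 rose by 0.35 on the log2 scale (95% interval 0.19 to 0.51, adjusted p = 7.42e-05), and NDUFA9 and NDUFA13 by 0.33 each. NDUFA13, also known as GRIM-19, is known as a protein that binds STAT3. Its adjusted p was 0.000400 in the authors' deposited table, with a mean of 1356 and a 95% interval from 0.16 to 0.49. Some of its exon bases, 131 in GENCODE 29, are shared on the same strand with YJEFN3, whose mean was 65.5 in the authors' deposited table. In the authors' deposited table the membrane arm subunits NDUFB9, NDUFB3, NDUFB8 and NDUFS5 rose by 0.31, 0.31, 0.28 and 0.28 (log2 fold change). These 9 rises are close to each other in size, between 1.19-fold and 1.28-fold, and their intervals overlap.

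NDUFB1, a small membrane arm subunit, was the only complex I row that fell, in the authors' deposited table to 78.2% of scramble (log2 fold change −0.35, 95% interval −0.61 to −0.10, adjusted p = 0.0178). Complex I had 27 subunits that were not called, and their log2 fold changes lay between −0.22 (NDUFC1) and 0.21 (NDUFS6). In the authors' deposited table NDUFS6 (adjusted p = 0.0899) and NDUFA1 (adjusted p = 0.0862) were just outside the threshold. NDUFA4, which biochemistry now places in complex IV, is counted here by its symbol among the supernumerary subunits of complex I. It is therefore absent from the complex IV counts. NDUFA4 was at 0.16 (adjusted p = 0.129), and its hypoxia-induced paralogue NDUFA4L2 at −0.04 (adjusted p = 0.927), from a mean of 47.9, in the authors' deposited table. The noncoding rows NDUFA6-AS1 and NDUFB2-AS1, with means of 36.9 and 13.8, were not called either, and NDUFV2-AS1 with a mean of 5.33 has no adjusted p in the authors' deposited table.

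**Figure D3:**
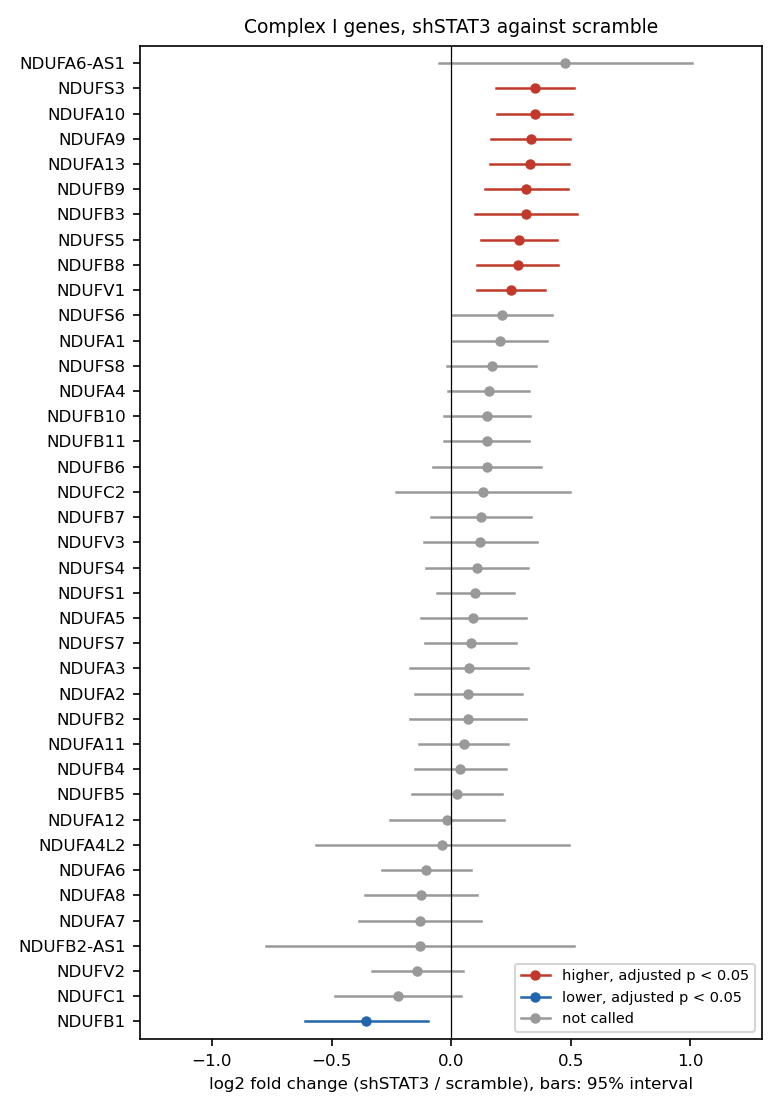
Fold change on a log2 scale (x axis) of the tested complex I rows (y axis, 1 row that was not called is left out) in shSTAT3 against scramble, as points with 95% intervals. The 9 rises sit together between 0.25 and 0.35, and NDUFB1 at −0.35 is the only row called lower.

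Complex II, succinate dehydrogenase, has 4 subunits, and SDHD alone among them was called. That is a lower share of 25%, against 23.2% of all tested genes, and 4 genes are too few to compare the shares. SDHA, the flavoprotein that oxidises succinate, was at 0.02 (95% interval −0.12 to 0.15), and SDHB, the iron-sulphur subunit, at −0.0038 (−0.17 to 0.16) in the authors' deposited table. SDHC, which forms the membrane anchor together with SDHD, was at −0.08 (−0.31 to 0.15). The interval of SDHD, from −0.98 to −0.50, overlaps none of these. TIMM8B, a small chaperone of mitochondrial import that starts head to head with SDHD, was at 0.21 (95% interval −0.03 to 0.45, adjusted p = 0.147) in the authors' deposited table. SDHD and TIMM8B share 26 exon bases on opposite strands.

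In complex III, the cytochrome bc1 complex, 1 of 8 subunits passed the test, or 12.5% against 44.5% of all tested genes. UQCR11, a small membrane subunit, rose in the authors' deposited table by 1.19-fold (log2 fold change 0.25, 95% interval 0.06 to 0.43, adjusted p = 0.0248). UQCRFS1, which encodes the Rieske iron-sulphur protein, was at 0.05, the core protein gene UQCRC2 at 0.08 and the other core protein gene UQCRC1 at −0.18 (adjusted p = 0.0733) in the authors' deposited table. UQCRH, UQCRQ and UQCRB lay within 0.01 of 0. UQCRHL, an intronless copy of UQCRH with a mean of 71.5, was at 0.14 and not called. Reads of UQCRH and UQCRHL could be assigned to either, so both are uncertain. The pseudogene UQCRBP1 had 7 reads over the 6 libraries, as recovered from its mean, and no adjusted p.

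Complex IV, cytochrome c oxidase, had 4 rises among 11 tested subunits and no fall, and none of its subunits had a lower value at an unadjusted p under 0.05 either. Its higher share was 36.4%, against 21.3% of all tested genes, and 23.2% of all tested genes fell. Beside COX7C, the rises in the authors' deposited table were those of COX5B (log2 fold change 0.26, adjusted p = 0.00989), COX5A (0.22, adjusted p = 0.0170) and COX6C (0.19, adjusted p = 0.0470). COX5A and COX5B bind the matrix side of the catalytic core, and COX6C is a membrane subunit. The interval of COX7C, from 0.70 to 1.02, lay above those of all other subunits of the complex. COX4I1, a regulatory subunit that binds ATP, was at 0.11 (95% interval −0.02 to 0.24), and COX6A1, COX6B1, COX7A2, COX7B and COX8A lay between −0.08 and 0.01 in the authors' deposited table.

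Several complex IV subunits exist as tissue isoforms, and REH expressed the general ones. COX4I2, the lung and hypoxia isoform, COX6A2 and COX7A1, the heart and muscle isoforms, and COX7B2 had a mean of 0 in the authors' deposited table, and COX6B2, the testis isoform, had 1 read over the 6 libraries. For each of these, 0 or 1 read over all libraries supports no comparison. Their general counterparts COX4I1, COX6A1, COX7A2, COX7B and COX6B1 had means from 863 to 2655 normalized counts. COX8C, a testis isoform, was an exception with a mean of 103, or 193 normalized counts per kb of transcript against 2195 for COX8A, and it was not called (−0.03, 95% interval −0.41 to 0.36) in the authors' deposited table. COX7A2L, which helps to join complexes III and IV, was at 0.14 (adjusted p = 0.240) in the authors' deposited table.

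ATP synthase had rises and falls side by side, with 3 of each among 15 tested subunits and an SD of 0.33 across their log2 fold changes. Each direction made up 20.0% of them, against 21.3% higher and 23.2% lower among all tested genes. In the F1 head and its central stalk, ATP5B, the catalytic β subunit with a mean of 10178, rose in the authors' deposited table by 1.19-fold (log2 fold change 0.25, 95% interval 0.12 to 0.38, adjusted p = 0.000456). Per kb of transcript, ATP5B had the highest level of all members, 5535 normalized counts. ATP5A1, the α subunit with which β alternates in the head, was at 0.06 (95% interval −0.05 to 0.18) in the authors' deposited table. The central stalk holds γ, δ and ε. ATP5C1 (γ) fell as given above, while ATP5D (δ) and ATP5E (ε) were at −0.10 and −0.0046, with intervals from −0.28 to 0.08 and from −0.21 to 0.20, both apart from that of ATP5C1.

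The peripheral stalk, which keeps the head from turning, has 4 nuclear genes, of which 2 fell. Among all tested genes 23.2% fell, and 4 genes are too few for their share to be read against it. ATP5J, coupling factor 6, fell to 72.0% of scramble (log2 fold change −0.47, 95% interval −0.65 to −0.30, adjusted p = 1.02e-06) and ATP5H, subunit d, to 83.1% (−0.27, 95% interval −0.46 to −0.08, adjusted p = 0.0159) in the authors' deposited table. ATP5O and ATP5F1, the OSCP and b subunits, were at 0.06 and 0.04. ATP5J shares 413 exon bases on the opposite strand with GABPA, which encodes the DNA-binding part of GABP and itself fell (log2 fold change −0.34, adjusted p = 0.00858) in the authors' deposited table, and 58 with JAM2. Use of strand in counting is not given in the sources used here, so reads in these stretches cannot be assigned with certainty.

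Of the 6 genes of the membrane part, 2 rose in the authors' deposited table, and none was lower even at an unadjusted p under 0.05. Their higher share was 33.3%, beside 21.3% of all tested genes, and 23.2% of all tested genes fell. With 6 genes, these shares are too coarse to be compared. ATP5I, subunit e, rose by 0.32 on the log2 scale (95% interval 0.11 to 0.52, adjusted p = 0.00802). The ring of c subunits is encoded by ATP5G1, ATP5G2 and ATP5G3, whose mature proteins are identical and whose import sequences differ. In the authors' deposited table ATP5G1 rose 1.19-fold (log2 fold change 0.25, 95% interval 0.05 to 0.45, adjusted p = 0.0386), while ATP5G2 was at 0.02 (−0.12 to 0.16) and ATP5G3 at −0.0012 (−0.15 to 0.15). The gene that rose was the least abundant of these, at 995 normalized counts per kb of transcript against 2928 for ATP5G2 and 2247 for ATP5G3. ATP5L and ATP5J2, subunits g and f, were at 0.07 and 0.08. Among rows that are no subunits, ATP5S rose by 0.49 (95% interval 0.09 to 0.88, adjusted p = 0.0382) from a mean of 108, and ATP5SL was at 0.09 and not called in the authors' deposited table. ATP5L2, ATP5EP2 and the readthrough rows ATP5J2-PTCD1 and NDUFC2-KCTD14 had 6, 4, 2 and 1 reads over the 6 libraries and no adjusted p.

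**Figure D4:**
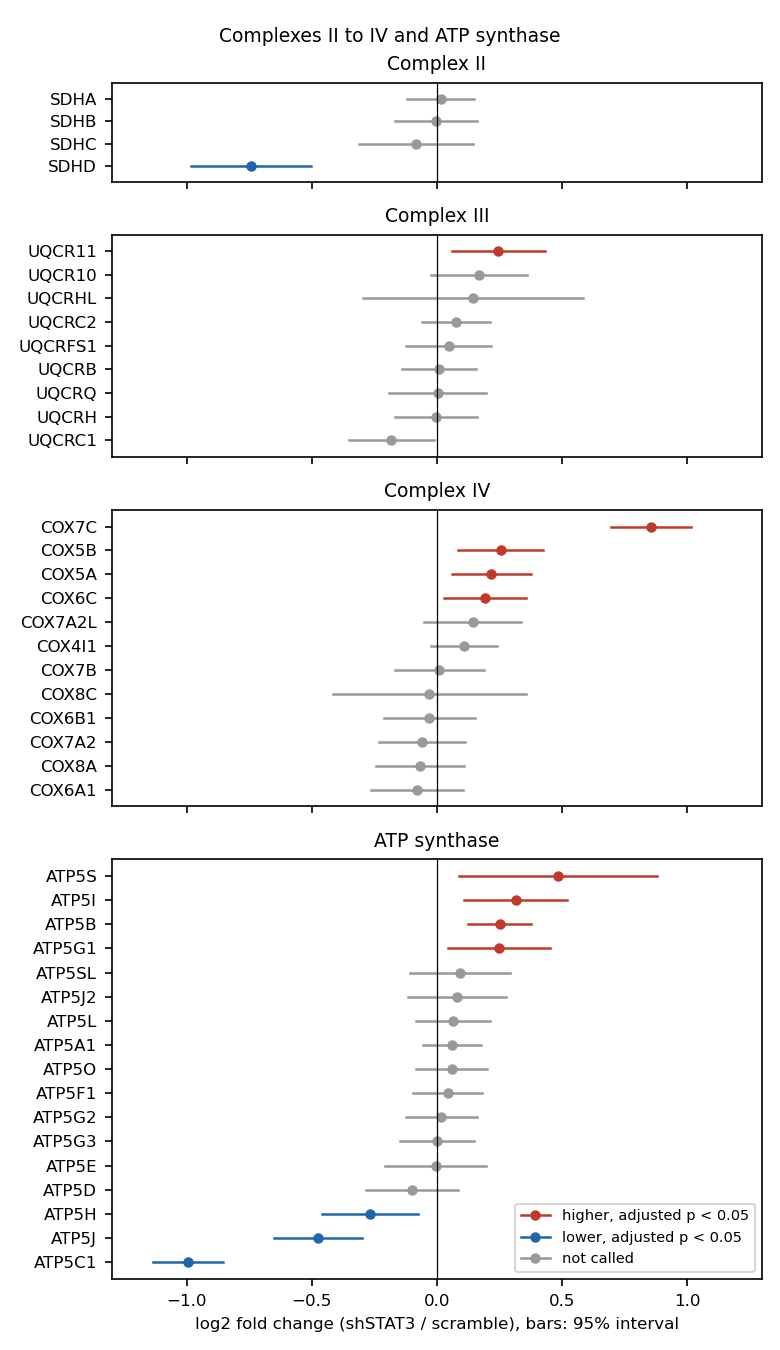
Fold change on a log2 scale (x axis) of each tested row (y axis) of complexes II, III, IV and ATP synthase in shSTAT3 against scramble, as points with 95% intervals. SDHD, COX7C and ATP5C1 each stand apart from the other rows of their complex.

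The 53 subunits that were tested and not called had 95% intervals that lay wholly within 0.5 of 0 on the log2 scale, and 3 of them (NDUFS6, NDUFA1 and UQCRC1) had an unadjusted p under 0.05. All 75 tested subunits had a mean of over 100 normalized counts. Their transcripts were short, with a median length of 750 bases against 2510.5 for all tested genes. Tested genes no longer than 750 bases (502 genes, with some of the subunits among them) had a median log2 fold change of 0.10, with 23.5% higher and 11.4% lower. Across the 75 subunits, fold change and transcript length had a Spearman rho of 0.04, against −0.03 across 11778 tested genes with a length, as a description over genes of the same libraries.

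Subunit genes have many processed pseudogenes, and 158 pseudogenes named after 44 of the 75 tested subunits stand in GENCODE 29, 17 of them named after COX6C. Rows for 2 pseudogenes are among the members. A named pseudogene exists for 10 of 17 subunits that rose, 5 of 5 that fell and 29 of 53 that were not called. How reads shared with such copies were assigned is not given in the sources used here, and its part in the fold changes was not tested. For 10 of the 23 called members, exon bases are shared with another row that has reads. Members that were not called have such overlaps too, as NDUFB11 has with RBM10 (636 bases on the opposite strand). Those members were not counted, so the 10 do not tie overlap to being called. NDUFS3 shares 721 bases on the same strand with PTPMT1, which was at 0.11 and not called, and 234 on the opposite strand with CELF1, which rose by 0.51 in the authors' deposited table. NDUFB8 shares 325 bases on the opposite strand with HIF1AN, which rose by 0.63 in the authors' deposited table. Partners on the opposite strand that were not called include MYL5 at −0.62 (579 bases shared with ATP5I), KCTD2 at 0.13 (340 with ATP5H) and FAM126B at 0.06 (218 with NDUFB3) in the authors' deposited table.

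Among subunit and carrier genes whose symbols fall outside the pattern, 2 of 6 tested rose, or 33.3% beside 21.3% of all tested genes. With 6 genes, these shares are too coarse to be compared. C14orf2, a small proteolipid of ATP synthase, rose by 0.38 (adjusted p = 0.000266) in the authors' deposited table. ATPIF1, the inhibitor that blocks the reverse reaction of ATP synthase, rose there by 0.26 (adjusted p = 0.0153). CYC1, the cytochrome c1 of complex III, was at 0.18 (adjusted p = 0.0528) and NDUFAB1, the acyl carrier protein in complex I, at 0.19 (adjusted p = 0.0975). CYCS, cytochrome c, was at −0.05 and the remaining gene, USMG5, at −0.03 (adjusted p = 0.863) in the authors' deposited table.

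Assembly factors, which build the complexes without being part of them, moved in both directions. Of 56 tested, 8 rose and 7 fell in the authors' deposited table, or 26.8% called against 44.5% of all tested genes, with a median log2 fold change of −0.02. COX17, the copper chaperone that delivers copper to complex IV, had the largest fall of this list, in the authors' deposited table to 33.6% of scramble (log2 fold change −1.57, 95% interval −2.00 to −1.15, adjusted p = 4.47e-12), from a mean of 92.3. Among the other complex IV factors, COA7 rose by 0.52 and the copper chaperone SCO1 by 0.39 (log2 fold change) in the authors' deposited table. In all, 4 of 25 complex IV factors rose and 4 fell, or 32% called against 44.5% of all tested genes.

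For complex I, 1 of 17 factors rose and 2 fell in the authors' deposited table, or 17.6% called against 44.5% of all tested genes. TMEM70, which also serves ATP synthase, was at −0.55 (adjusted p = 0.000102), NDUFAF3 at −0.61 (adjusted p = 0.000622) and ECSIT at 0.29 (adjusted p = 0.0129). For complex II, SDHAF2, which attaches the flavin to SDHA, rose by 0.43 and SDHAF3, which helps to mature SDHB, was at −0.52 (adjusted p = 0.0168), with 2 of 4 factors called. For complex III, BCS1L, which inserts the Rieske protein, rose by 0.49 and UQCC2 by 0.43 (log2 fold change) in the authors' deposited table, and 0 of the other 4 were called. For ATP synthase, without TMEM70, which was counted under complex I, 0 of 4 factors were called. Of these 4, 0 had an unadjusted p under 0.05. The shares called were 50% for complex II, 33.3% for complex III and 0% for ATP synthase. These lists hold 4 or 6 genes each, too few to be read against the 44.5% of all tested genes.

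Regulators of mitochondrial gene expression had 5 higher and 6 lower of 17 tested in the authors' deposited table, or 64.7% called, beside 44.5% of all tested genes. Those that rose were the coactivators PPARGC1B (log2 fold change 0.70) and PPRC1 (0.62, adjusted p = 8.67e-10), the orphan receptor ESRRA (0.60, adjusted p = 2.68e-06), the mitochondrial helicase Twinkle, listed as C10orf2 (0.66, adjusted p = 9.43e-10), and TFB2M, a mitochondrial transcription factor (0.59), in the authors' deposited table. Among the 6 that fell, NRF1, whose core motif was counted above, was at −0.30 (95% interval −0.54 to −0.06, adjusted p = 0.0379), and GABPA (−0.34) and GABPB1 (−0.44), the parts of GABP, fell too in the authors' deposited table. YY1 was at −0.22 (adjusted p = 0.0168), TFAM, which packs mitochondrial DNA, at −0.23 (adjusted p = 0.0407) and TFB1M at −0.55 (adjusted p = 0.00944) in the authors' deposited table. PPARGC1A had a mean of 5.52 and no adjusted p. The genes of this list beyond PPRC1, C10orf2 and ESRRA were named after their values were seen. Protein levels and respiration were not measured.

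**Figure D5:**
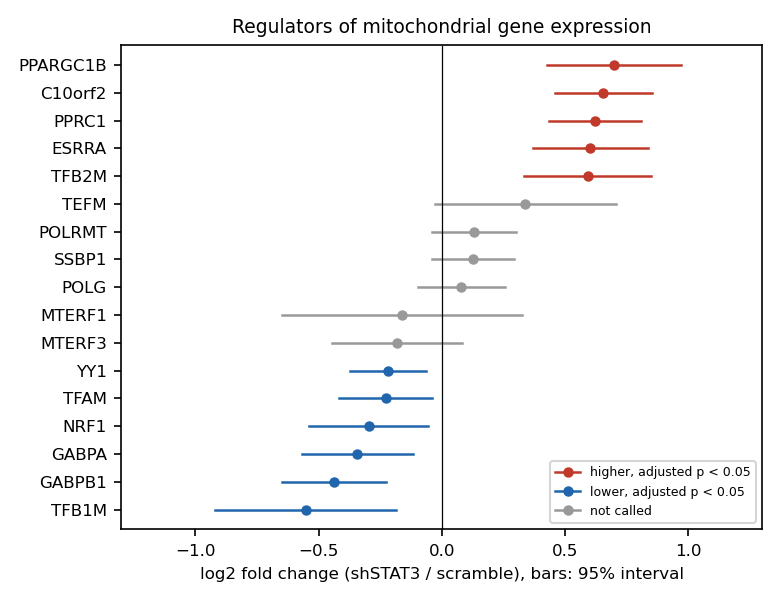
Fold change on a log2 scale (x axis) of each tested regulator of mitochondrial gene expression (y axis) in shSTAT3 against scramble, as points with 95% intervals. The 5 genes that rose lie between 0.59 and 0.70, and the 6 that fell lie between −0.55 and −0.22.

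Neighbours on the opposite strand that start head to head with a member were found for 19 members. Their starts lay within 1000 bases of the member's start, or overlapped it by at most 200 bases. In 16 such pairs both genes were tested, counting NDUFA6 and its noncoding neighbour from each side. In these 16 pairs 5 neighbours were called, 2 higher and 3 lower. Among all tested genes 44.5% were called, 21.3% higher and 23.2% lower. Both genes were called in 1 pair, NDUFB1 and CPSF2. CPSF2, a cleavage factor of mRNA ends, fell by 0.46 on the log2 scale (adjusted p = 3e-08) in the authors' deposited table. ATP5J and GABPA, which share 413 exon bases on opposite strands and both fell, are not among the pairs found under these limits. ATP5C1 faces KIN, which was at −0.16 (95% interval −0.40 to 0.08, adjusted p = 0.282) in the authors' deposited table, so the interval of its neighbour did not reach that of ATP5C1. HAUS1, which faces ATP5A1, was at −0.55 (adjusted p = 5.39e-06) and LRRC41, which faces UQCRH, at 0.32 (adjusted p = 0.000237) in the authors' deposited table, while both respiratory chain genes were not called.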

How the data were processed

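Per the labels' protocols, TruSeq libraries were made from total RNA. Tools named without an order in the submitters' processing notes are DESeq2, featureCounts, Picard, Bowtie2, Trimmomatic and bcl2fastq 2.19, with the build hg38. Settings, annotation and use of strand: not given in the sources used here. Per the file headers, the authors deposited a mean normalized signal, a fold change (log2), its p-value and its adjusted p-value for every gene. The fold changes look shrunken, as the 1353 genes with 1 read lie within 0.0593 of 0. Adjusted values recomputed by Benjamini-Hochberg over 12061 genes differed from the deposited ones by at most 2.87e-07. Missing values were kept missing. The values of 1 member are not reported here, though it is in the counts.

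The members and lists were chosen with earlier results of these data known. Calls use the threshold 0.05 on the adjusted p of the authors. The standard error was taken as the fold change over the normal quantile of its p, and 95% intervals follow from it, both on the shrunken scale. Their precision rests on 3 libraries a group. As the table holds no library values, the planned count model was not run. Members were named freely, and in the other lists up to 3 called genes each by smallest adjusted p, unless said otherwise. Symbols were matched through RefSeq synonyms to GENCODE 29 for positions. Transcript length is the median over basic protein-coding transcripts. Size factors came from the means of genes with 1 read, and low read totals from sums of those steps. The adjustment and the line fit were tested on simulated data. Tools were matplotlib 3.10.9, scipy 1.17.1, pandas 2.3.3, numpy 2.4.6 and Python 3.11.15.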

Additional observations from a re-analysis of the deposited data

How the results depend on the processing

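No paired analysis was possible because the files used here hold 1 comparison over all libraries and no values per library, so leaving out a replicate was not run either. Of the 23 called members, 4 (ATP5C1, ATP5J, COX7C and SDHD) were called under every other threshold and filter tried. At an adjusted p under 0.01, higher members numbered 12 in place of 18, and lower members 3 in place of 5. Complex I then had 8 higher and 0 lower, complex III 0 higher, complex IV 2 higher and ATP synthase 2 higher and 2 lower. At 0.1, 3 members were added (NDUFS6, NDUFA1 and UQCRC1), so complex III had 1 lower. Asking for a change of at least 25% upward, 6 members were higher in place of 18: 4 in complex I, 0 in complex III, 1 in complex IV and 1 in ATP synthase. With a Bonferroni adjustment 1 was higher (COX7C, complex IV) and 3 were lower, with 0 either way in complex I, 0 higher in complex III and 0 higher in ATP synthase. Without a filter on low means, 3 calls were lost and ATP synthase had 2 higher. A mean of at least 50 lost 0 calls. All 24 recomputed medians of the set and the complexes moved by at most the median standard error of their members. They were centred, fitted on mean and length, filtered, or taken over subunits only. Except in complex I, that standard error was larger than the size of the median itself, so this is a weak check. The largest shift was 0.0498, in complex IV, from 0.0586 to 0.0088 with subunits only. In complex III the median went from 0.0475 to 0.0905 with the fit and to 0.0288 with subunits only. Subunits only changed no count by over 1.5 times. The settings differ in threshold or filter, and Bonferroni and the setting without a filter on low means differ in the adjustment. Without that filter, the threshold stayed at 0.05 and the adjustment ran over all genes with a p.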
